A study of Homo sapiens with 38 samples.

Results

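The olfactory receptor (OR) genes of chromosome 11 were examined in K562, an established line of human leukemia cells with erythroid features. Members were the protein-coding genes on that chromosome whose GENCODE symbol reads OR, digits, letters, digits, and 171 of the 20162 protein-coding genes met this rule. CUT&Tag, in which a transposase is brought to a histone mark by an antibody so that the DNA beside the mark is released and sequenced, had been run for H3K27ac and H3K27me3. The 8 benchmark libraries were used for the main values. For H3K27ac there were 2 replicates each with ab177178 at 1:100, ab4729 at 1:100 and Diagenode at 1:50, and for H3K27me3 there were 2 replicates with CST-9733 at 1:100. All 8 were untreated, with 15 PCR cycles and SDS-based extraction, and each had 1 MACS2 and 1 SEACR peak list. The study calls its sequencing replicates biological, but whether they came from separate cultures is not given, so the spread is that between libraries. It cannot be told apart in such bulk samples whether fewer cells carry a mark or each cell carries less of it.

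Odorant receptors are G protein-coupled receptors whose coding sequence usually sits in 1 exon. An olfactory neuron chooses 1 receptor allele from a very large repertoire, with LHX2, EBF1 and LDB1 assembling the enhancers that act on the chosen gene, while the others lie in compact heterochromatin. Class I receptors (families OR51, OR52 and OR56) resemble those of fish, and class II holds all other families. H3K27ac marks active promoters and enhancers, and H3K27me3 is the mark of Polycomb repression.

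Of the 171 members, 55 belonged to class I and 116 to class II, and they fell into 8 clusters when gaps of at most 1 Mb were bridged. The first cluster held 67 members between 4.39 and 7.96 Mb, with every class I gene and, in its midst, the beta globin genes. The largest class II cluster held 48 members between 55.11 and 56.76 Mb, and OR2AT4 stood alone at 74.8 Mb. In the annotation, 125 members had 1 transcript and 78 began at their coding sequence, so that no upstream exon was known. The median gene body spanned 1074 bp against 27220 bp for all coding genes, and the median coding span was 942 bp.

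The sequences below, from GRCh37 (the assembly that hg19 names), are shown because each lay under the peaks of one mark in several libraries. The first is the stretch common to the H3K27ac peaks of 5 libraries in the first intron of OR52N2 (chr11:5831545-5831829, plus strand). The second is part of the coding exon of OR52E2 under the H3K27me3 peaks of all 4 lists (chr11:5080385-5080684, minus strand). Capitals mark 4 GATA forms (AGATAA or its variant AGATAG, and likewise TGATAA or its variant TGATAG), the letters CCCNNGGG of an EBF-type core, the homeodomain core TAATTA, and the TATA box letters TATAAA, each searched on both strands.
OR52N2: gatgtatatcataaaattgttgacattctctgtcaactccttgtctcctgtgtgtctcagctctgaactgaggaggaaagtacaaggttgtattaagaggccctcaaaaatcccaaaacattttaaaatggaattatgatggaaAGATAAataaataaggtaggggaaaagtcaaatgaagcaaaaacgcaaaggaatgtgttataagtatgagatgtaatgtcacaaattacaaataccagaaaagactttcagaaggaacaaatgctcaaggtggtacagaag
OR52E2: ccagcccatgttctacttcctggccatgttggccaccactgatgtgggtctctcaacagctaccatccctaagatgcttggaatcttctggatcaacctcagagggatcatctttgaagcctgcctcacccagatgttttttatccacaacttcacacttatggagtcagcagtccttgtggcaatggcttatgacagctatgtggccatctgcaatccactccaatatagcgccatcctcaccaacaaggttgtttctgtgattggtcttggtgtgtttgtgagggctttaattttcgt

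In windows from 250 bases before to 50 bases after the outermost start, 56.7% of the members held a GATA form, against 22.0% of 20141 coding genes with known sequence. TATAAA stood in 33.9% of the members' windows against 10.9%, TAATTA in 20.5% against 3.81%, and CCCNNGGG in 8.77% against 20.1%. The members' windows were poor in G and C, with a median GC content of 37.7% (24.3 to 60.3) against 60.3% for all coding genes, and a median CpG observed over expected of 0.12 against 0.69. These letters were read as a description of the windows and not as binding sites. One GATA form lay in the 285 bases of OR52N2, and 28.2% of windows of that length at the midpoints of 167983 H3K27ac MACS2 peaks, pooled over 6 lists, held one.

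Peaks of either mark were rare at the chromosome 11 receptors. At least 1 peak in the promoter (1.5 kb either side of any annotated start) or the gene body was listed for 27 members, and 144 had none in the 16 benchmark lists. H3K27ac was found at 4 of the 27 and H3K27me3 at the other 23. The share of all coding genes by this rule of any 1 list is not given. No member had peaks of both marks, which says little where so few had either. At promoters, H3K27ac in at least 2 of 6 libraries was called at 3 members by MACS2, against 56.3% of all coding genes, and at 2 by SEACR, against 50.9%. H3K27me3 in both libraries was called at 8 promoters by MACS2 (26.3% of all coding genes) and at 7 by SEACR (25.9%). In gene bodies the H3K27ac counts were 4 (59.3% of all coding genes) and 2 (54.1%), and the H3K27me3 counts were 10 in both callers (30.9% and 30.8%). In the bodies, H3K27ac covered 0.342% ± 0.131 (SD, n = 6 libraries) of the bases by MACS2 against 1.85% ± 0.47 over all coding genes. Bases were pooled, so long bodies weigh more, and OR51B5 alone spans 202209 bp against a median of 1074 bp. For H3K27me3 the shares were 1.56% and 0.719% in the 2 libraries by MACS2, against 7.57% to 8.36% over all coding genes. The lists hold no read totals, so a member without a peak had no mark detectable at this depth and these thresholds.

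**Figure D1:**
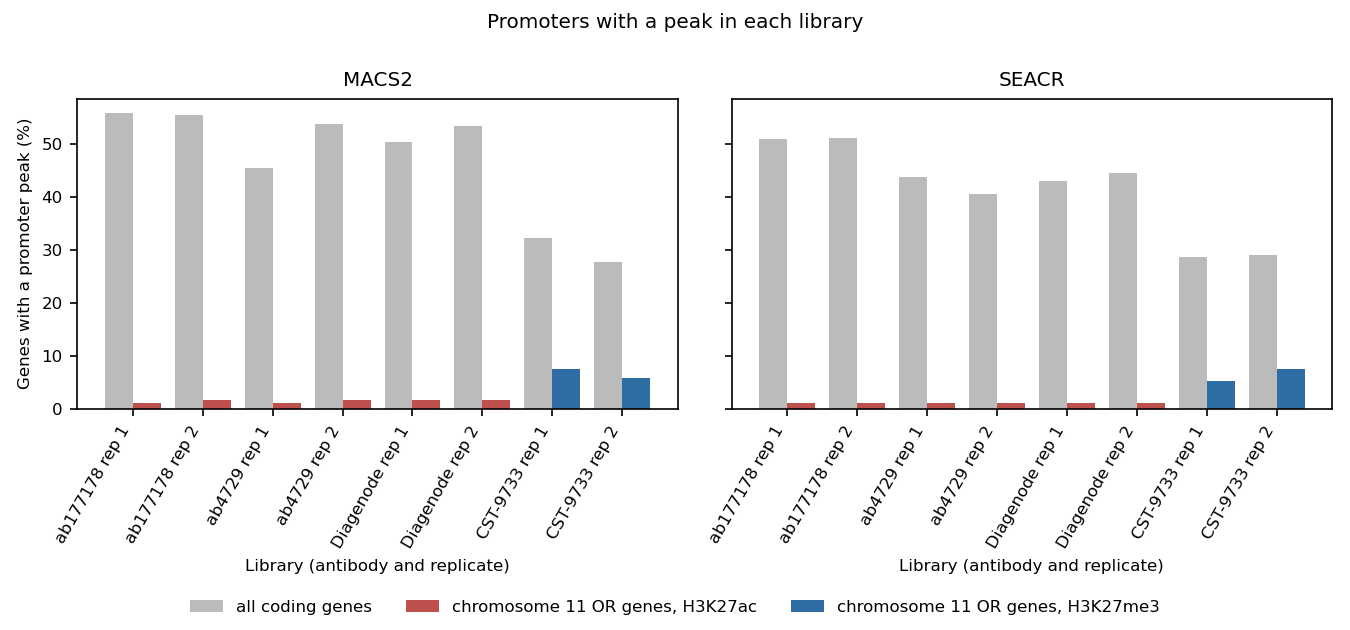
Share of genes with a promoter peak (y axis, percent) in each benchmark library (x axis), for MACS2 (left) and SEACR (right). Grey bars stand for all 20162 coding genes and coloured bars for the 171 members. In every list the members' bar lay below the grey one, with 2 or 3 members for H3K27ac and 9 to 13 for H3K27me3.

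OR2AT4, a receptor for a sandalwood odorant that has been described in skin, was the member with the most widely called H3K27ac. By MACS2, peaks covered 20.7% and 19.2% of its promoter windows with ab177178, 15.5% and 27.4% with ab4729, and 28.6% and 29.9% with Diagenode. The SEACR values were 50.0% and 35.2%, 33.8% and 50.0%, and 50.0% and 50.0%. All 6 H3K27ac libraries were thus above the H3K27me3 libraries, which had 0 in both callers, and OR2AT4 was the only member whose groups stood apart in that direction at the promoter. The same held for 41.4% of all coding genes by MACS2 and 35.8% by SEACR. The peaks lay around the outermost start of the gene (position 74807921), 7.2 kb from its coding sequence, which no H3K27ac peak reached. An annotated start of SLCO2B1, an organic anion transporter on the other strand, lay 3687 bp away, and SEACR joined the neighbourhood into single peaks of up to 11174 bp. Which transcript the acetylation belongs to was not tested.

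OR51B5, which has been described in leukemia cells, carried H3K27ac at its promoter in 5 of 6 libraries in each caller. Its MACS2 coverage was 27.4%, 26.3%, 17.3%, 27% and 28.4% in those libraries, its SEACR coverage was 32.3% to 41.2%, and both were 0 in ab4729 replicate 1. The peak stood at the outermost start (position 5526882), and that start is also annotated for HBE1, with one of HBG2 47 bp away. The coding exon of OR51B5 lay 162.1 kb farther on (chr11:5363819-5364754) and held no peak. With the start of the coding sequence as the only promoter, just 1 member, OR52A5, had H3K27ac in at least 2 libraries by MACS2 and 0 did by SEACR. The share of all coding genes by this rule is not given.

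At OR52N2 an H3K27ac peak lay in the first intron in 5 of 6 MACS2 lists, and the stretch common to them ran from 1391 to 1675 bp downstream of the gene's start. It covered 3.7% of the promoter window in ab177178 replicate 2 and 10.5% to 10.9% in the ab4729 and Diagenode libraries, with 0 in ab177178 replicate 1. SEACR listed it in ab4729 replicate 1 alone, where it took up 60.2% of the window. This intron lies within TRIM5, a restriction factor gene on the opposite strand with H3K27ac at a promoter in all 12 lists.

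OR52A5, on the HBB side of the globin genes, had H3K27ac peaks in its body in 5 of 6 MACS2 lists and in none of the SEACR lists. They covered 0, 3.2%, 3.3%, 11.7%, 10.8% and 13.9% of the body in the libraries of ab177178, ab4729 and Diagenode, in that order with replicate 1 first. In 4 libraries a peak reached the coding part of the exon (chr11:5152925-5153872), and it was the only member with H3K27ac on its coding sequence. Its promoters held no peak.

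**Figure D2:**
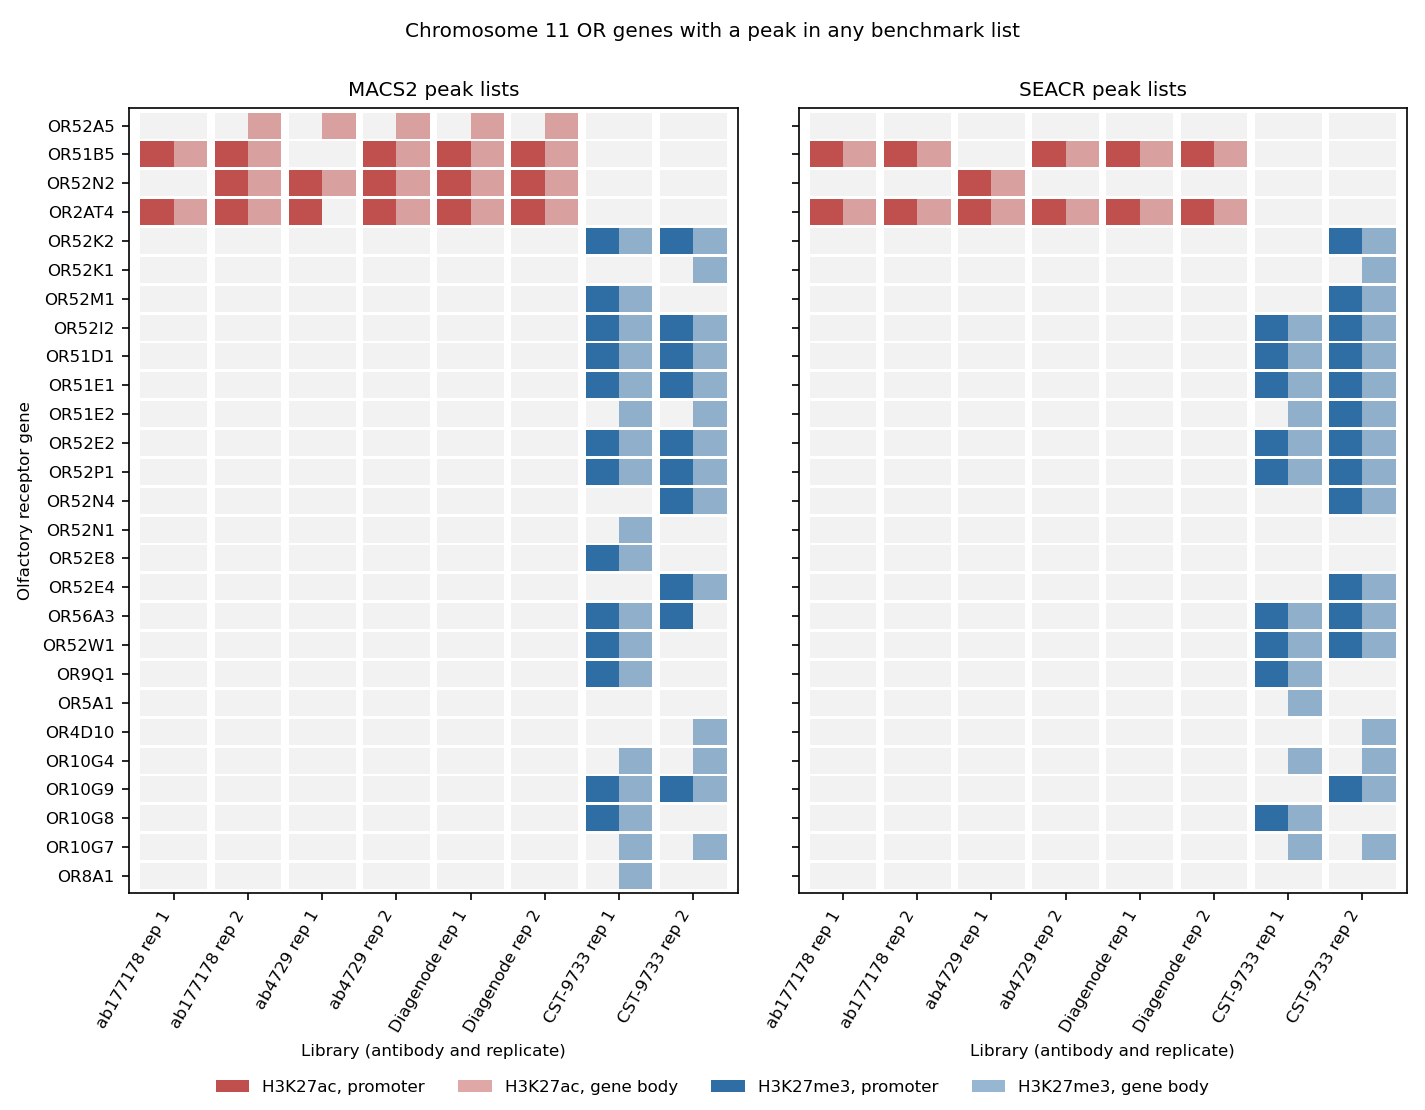
The 27 members with a peak (rows) in the 8 benchmark libraries (columns), for MACS2 (left) and SEACR (right). The left side of a cell is filled where the promoter held a peak and the right, paler side where the body did. Red stands for H3K27ac and blue for H3K27me3, and no row holds both, with few members called for either.

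Next to the beta globin genes lay 14 members whose coding spans were within 200 kb of the coding span from HBB to HBE1 (chr11:5246831-5291120). On the HBB side these were OR52J3, OR52E2, OR52E1, OR52A5, OR52A1 and OR51V1, and on the HBE1 side OR51B4, OR51B2, OR51B5, OR51B6, OR51M1, OR51Q1, OR51I1 and OR51I2. Between the innermost receptors, OR51V1 and OR51B4, H3K27ac covered 22.4% ± 6.07 (SD, n = 6) of 100.3 kb by MACS2 and 34.0% ± 4.69 by SEACR, and H3K27me3 covered 0 in both libraries and callers. Library by library the MACS2 values were 18.5% and 20.8% (ab177178), 14.0% and 24.6% (ab4729), and 24.6% and 31.7% (Diagenode). From OR51B4 to OR51I2, over 153.4 kb, MACS2 gave 0.169% and 0.269% in the ab177178 libraries and 0 in the other 4, and SEACR gave 0 in all 6. On the other side, from OR52J3 to OR51V1, the share was 0.939% ± 0.721 by MACS2 and 1.17% ± 0.997 by SEACR. The lowest library between OR51V1 and OR51B4 was thus above the highest in either receptor segment, in both callers.

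The acetylated block ended at different distances from the receptors on its sides. Its last MACS2 peak before OR51B4 ended 7053 to 11205 bp from that coding span in the 6 libraries, and the last SEACR peak 6027 to 10958 bp from it. On the other side the first peak began 23949 to 24080 bp from OR51V1 by MACS2 and 31462 to 42048 bp by SEACR. OR51B4, OR51V1, OR51B2, OR51B6, OR51M1, OR51Q1, OR51I1, OR51I2, OR52A1, OR52E1 and OR52J3 had no peak of either mark in the 16 lists. A median of 8188 bp separated OR52A1 from its nearest H3K27ac peak by MACS2. Of the 14, OR52E2 alone carried H3K27me3. HBG1, HBG2 and HBD held promoter H3K27ac in all 12 lists, HBE1 in 11 and HBB in 3, and HBG1 and HBG2 are near-identical copies.

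**Figure D3:**
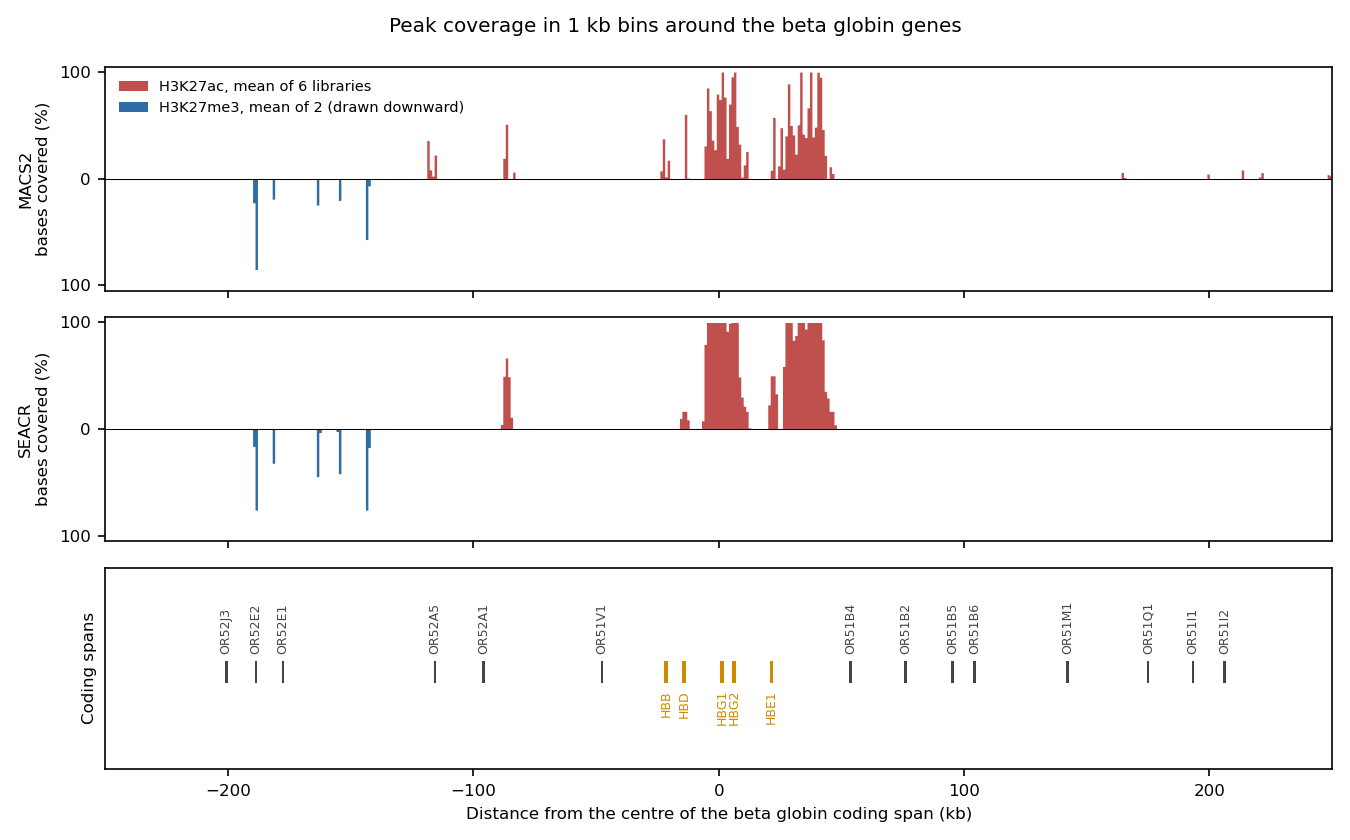
Mean share of each 1 kb bin under peaks (y axis, percent, H3K27ac up and H3K27me3 down) against the distance from the centre of the beta globin coding span (x axis, kb), for MACS2 (top) and SEACR (middle), with coding spans of globin and receptor genes (bottom). H3K27ac filled 22.4% of the MACS2 and 34.0% of the SEACR bases between OR51V1 and OR51B4 and at most 0.269% of those from OR51B4 to OR51I2 in any library.

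H3K27me3 was listed at 23 members, 15 of class I and 8 of class II. In all 4 lists, 8 members had it in the body and 6 at the promoter, the latter being OR52I2, OR51D1, OR51E1, OR52E2, OR52P1 and OR56A3. The shares of all coding genes by these rules, of any list or of all 4, are not given. In both libraries of a single caller, 30.9% (MACS2) and 30.8% (SEACR) of all coding genes had a body peak. At the promoter those shares were 26.3% and 25.9%. OR52E2 and OR52P1 begin at their coding sequence, and their promoter windows hold the whole gene. Peaks on their exons were thus counted in both places. The highest body coverage was that of OR52P1 and OR52E2. For OR52P1 it was 85.6% and 58.4% by MACS2 in replicates 1 and 2 and 100.0% in both by SEACR. For OR52E2 it was 89.3% and 91.5% by MACS2 and 53.1% and 100.0% by SEACR. These genes have 1 exon, which the peaks lay on, and all 6 H3K27ac libraries had 0 there.

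OR51E1 and OR51E2, known as receptors expressed in prostate, lay next to each other in the first cluster. OR51E1 had H3K27me3 on 44% and 23.7% of its promoter windows by MACS2 and on 50.2% and 28.7% by SEACR. OR51E2 had 4.3% and 1.3% of its body covered by MACS2 and 6.4% and 11.5% by SEACR, and its promoter held a peak in 1 of the 4 lists. The neighbour OR51D1 had 42.8% and 10.5% of its promoter covered by MACS2 and 47.7% and 53.6% by SEACR, and in replicate 1 it shared 1 peak with OR51E1 in each caller. At OR56A3 the promoter peaks included one of 9039 bp that ran from the side of TRIM5, whose outermost start is 132 bp from that of OR56A3.

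The class II members with H3K27me3 were OR10G4, OR10G7, OR10G8, OR10G9 and OR8A1 in the most distal cluster and OR9Q1, OR5A1 and OR4D10 in the sixth. OR10G9 had 41.3% and 43.6% of its body covered by MACS2, and 0 and 84.6% by SEACR. OR10G4, a receptor for the smoky odorant guaiacol, had 7.9% and 6.5% by MACS2 and 15.7% and 15.9% by SEACR, and OR10G7 had 25.2% and 12.6%, and 13.4% and 21.9%. OR10G8 was listed in replicate 1 alone, with 12.2% by MACS2 and 27.9% by SEACR. The coding sequences of these 4 genes have the same length, 933 bp, and were 92.2% to 96.2% identical. The alignment settings given by the study do not ask for more than 1 placement per read pair, and no filter on mapping quality is named among them, so the peaks of the 4 genes are uncertain as to copy.

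**Figure D4:**
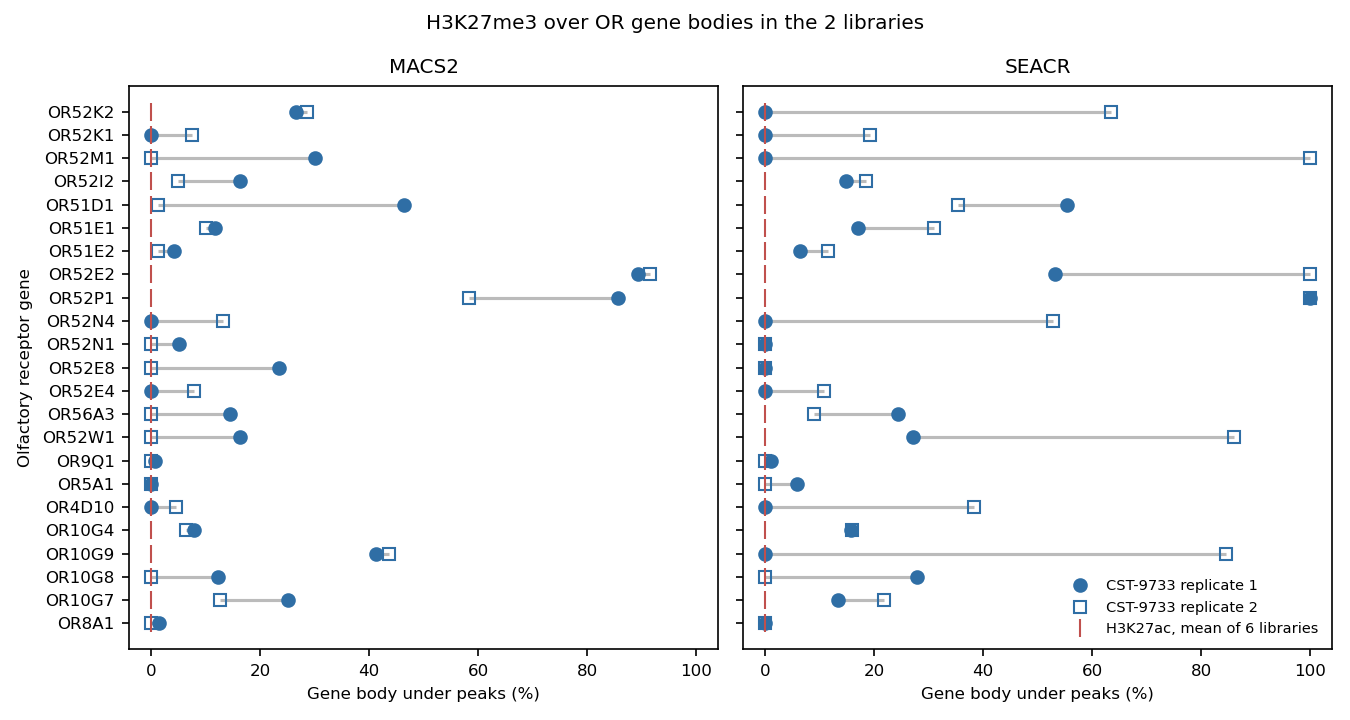
Share of the gene body under H3K27me3 peaks (x axis, percent) for the members with such a body peak in either caller (y axis), by MACS2 (left) and SEACR (right). Filled circles are CST-9733 replicate 1, open squares replicate 2, and red ticks the H3K27ac mean, at 0 for every gene shown. OR52E2 and OR52P1 lie farthest to the right, and the lines that join the replicates reach 0 for many other genes.

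The H3K27me3 peaks at the members were narrower than the median of their lists and ranked below it. The 43 MACS2 peaks had a median width of 548 bp, against 1162 bp for all H3K27me3 peaks, and a median fold over background of 3.08 (2.64 to 5.47) against 3.38. Their median percentile by fold within the list was 33.3, and that of the 46 SEACR peaks by total signal was 29.5. Of the members with a body peak, 10 were common to the 18 of replicate 1 and the 14 of replicate 2 by MACS2, which is 55.6% and 71.4% of each, against 84.3% and 95.3% for all coding genes. For SEACR it was 10 of 13 and of 17, or 76.9% and 58.8%, against 91.9% and 90.2%. With only the SEACR peaks in the upper 50% of signal, 0 members had an H3K27me3 body peak in both libraries, against 24.9% of all coding genes. With only the MACS2 peaks of q at or under 1e-10 the count was also 0, but this limit left just 4.75% of all coding genes, so it says little about the members.

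Within the receptor loci, H3K27me3 lay on the coding exons more than around them, a comparison chosen after the coverage had been seen. It covered 4.07% and 2.84% of the members' coding bases in replicates 1 and 2 by MACS2, against 0.698% and 0.0947% of the 1 kb on either side. By SEACR the coding shares were 4.28% and 7.07%, and the flanking shares 0.914% and 1.11%. Over the whole cluster intervals, which also hold the coding spans and other genes, the shares lay between these. They were 2.78% and 2.45% by MACS2, nearer the coding shares, and 2.58% and 3.36% by SEACR, nearer the flanking ones. The coding share was higher than the flanking and the cluster share in each of the 4 lists. Of the peaks, 25 of the 43 MACS2 and 25 of the 46 SEACR ones touched a coding span. Coding spans also differed from their surroundings in base composition, with a median GC content of 45.8% against 38.8% over the cluster intervals. That median was 50.8% for the 23 members with H3K27me3 and 45.5% for the others. The part of base composition in the peaks was not tested. Of 22 members with H3K27me3 and a coding span under 1.5 kb, 8 shared at least one 50-base word with another member's coding sequence, as did 41 of the 147 others.

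**Figure D5:**
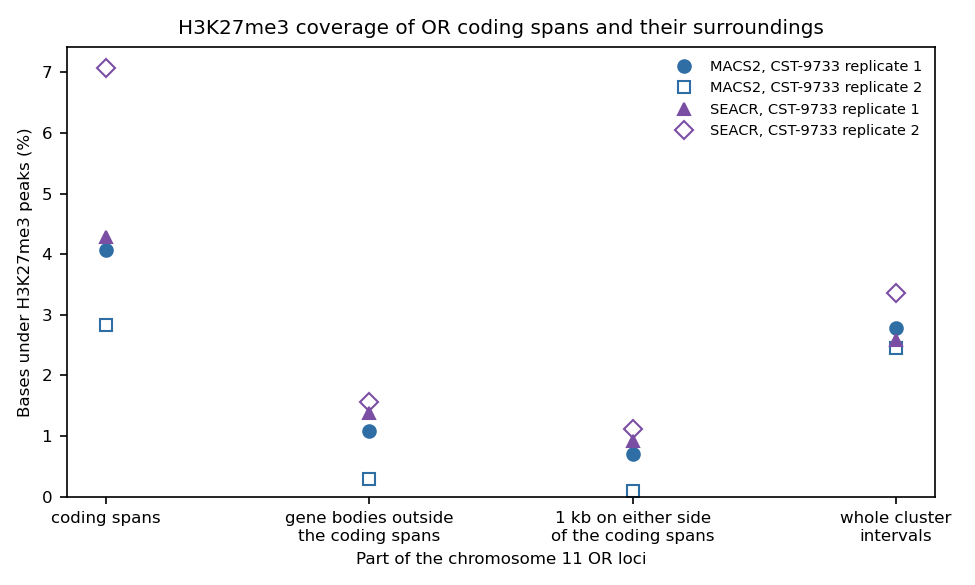
Share of bases under H3K27me3 peaks (y axis, percent) in 4 parts of the loci (x axis), with a symbol for each of the 4 lists. Each list was higher on the coding spans, at 2.84% to 7.07%, than on the 1 kb flanks, at 0.0947% to 1.11%. In each list the whole cluster intervals lay between these, at 2.45% to 3.36%.

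To compare the marks gene by gene, the coverage in the 2 H3K27me3 libraries was set against that in the 6 H3K27ac libraries. At the promoter, H3K27me3 was higher with no overlap of the groups at 8 members by MACS2 (23.5% of all coding genes) and 7 by SEACR (22.9%). In the body it was higher at 10 members in each caller (27.6% and 27% of all coding genes). The opposite order in the body was seen at 0 members by MACS2 (40.7% of all coding genes) and at OR2AT4 by SEACR (36.2%). An exact two-sided permutation test over the 28 ways to choose 2 of 8 libraries cannot give a p under 0.0357. For OR52E2 the promoter difference was 36.0 percentage points by MACS2, higher in 2 of 2 H3K27me3 libraries, with p = 0.0357 and an adjusted p of 0.0582 over 20162 genes by exact permutation. The peaks behind this difference lie on its exon, since its promoter window holds the whole gene. OR52E2 was named in part for its high H3K27me3 body coverage, so this p comes from the values that picked it and is no separate support. No gene, member or not, passed after adjustment in this design, and 9 of 171 members were at the smallest p by MACS2 at the promoter, against 12382 of all 20162 genes. The antibody, the calling settings and the mark differed together and cannot be told apart.

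The 27 members with peaks lay in the first, sixth and eighth clusters and at OR2AT4. In the second to the fifth, between 48.24 and 56.76 Mb, none of the 60 members had a peak, and the intervals held 0 covered bases in all 16 lists. The first cluster had H3K27me3 on 5.01% of its bases by MACS2 (4.66% and 5.36% in the libraries) and H3K27ac on 1.58% (0.853% to 2.09%). The sixth, with 21 members, had 1.72% and 1.73%, and the most distal, with 22, had 0.559% and 0.676%. Over the 8 intervals, 8.13 Mb in all, H3K27me3 by MACS2 covered 2.61% ± 0.234 (SD, n = 2) against 8.64% ± 0.638 of chromosome 11, which was 3.27 to 3.34 times as much in the libraries. H3K27ac covered 1.12% ± 0.238 (n = 6) against 1.498% ± 0.360. These intervals also hold other genes.

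Other genes in the same intervals were examined by the same rules. Of 63 other coding genes inside the clusters, 35 (55.6%) had promoter H3K27ac and 17 promoter H3K27me3 by MACS2, and 20 had promoter H3K27ac in all 12 lists, among them TRIM5, ARFIP2, ILK and TAF10. Of the 190 OR pseudogenes of chromosome 11, 4 (2.11%) had promoter H3K27ac and 16 (8.42%) promoter H3K27me3. The 228 OR genes of other chromosomes had promoter H3K27ac at 1 (0.439%) and H3K27me3 at 35 (15.4%) by MACS2, and at 0 and 33 (14.5%) by SEACR, against 1.75% and 4.68% of the members by MACS2 and 1.17% and 4.09% by SEACR. Their bodies were longer, with a median of 3678.5 bp, and these shares are given side by side with no test.

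Other genes of the olfactory pathway were read by the same rules, against the 56.3% of all coding genes with promoter H3K27ac and the 26.3% with promoter H3K27me3 by MACS2. Of 11 genes of olfactory transduction, 8 had promoter H3K27me3 in both libraries and callers, among them the G protein subunit gene GNAL, the channel genes CNGA2 and CNGB1 and the marker OMP. H3K27ac in at least 2 libraries was found at 4, GNB1, RIC8B, ADCY3 and CNGA4, of which CNGA4, inside the first cluster, had both marks. The chaperone genes RTP1, RTP2 and REEP1, which bring receptors to the surface, had H3K27me3 (3 of 3). Among 7 regulators of receptor choice, LHX2, EBF1 and EMX2 had H3K27me3, and LDB1, KDM1A, DDIT3 and ATF5 had H3K27ac in all 12 lists. All 7 heterochromatin genes, such as SETDB1 and CBX5, had H3K27ac by MACS2 and 6 did by SEACR, and none had H3K27me3. The 3 markers of olfactory neurons, OMP, CNGA2 and GNG13, had H3K27me3 in all 4 lists. As a check of the label, 8 of 8 erythroid markers (GATA1 and KLF1 among them) and 3 of 3 housekeeping genes had promoter H3K27ac.

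The 30 optimisation libraries, with 1 for each condition among them, varied the antibody, its dilution, the cycle number and the extraction. Of these, 5 used an Active Motif H3K27ac antibody, 4 were treated with TSA, an HDAC inhibitor, and 4 had the antibody, dilution, cycles and extraction of a benchmark group. In their lists OR2AT4 and OR51B5 were again the members with the most H3K27ac lists. OR2AT4 had promoter H3K27ac in 6 of 9 MACS2 and 10 of 25 SEACR lists, and OR51B5 in 3 of 9 and 10 of 25. OR52A5 and OR52A1 had a body peak in 1 of 9 MACS2 lists each, and OR51E1 in 1 of 25 SEACR lists. For H3K27me3 there was 1 MACS2 and there were 5 SEACR lists, with OR56A3 and OR10G7 in 4 of the 5. A further 16 members had peaks in these lists only, with OR51F2 and OR4D6 in 1 MACS2 and 2 SEACR lists each. No peak in any of the 56 lists was found for 128 members, and the same share of all coding genes is not given. These lists differ in depth and in downsampling by the authors.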

How the data were processed

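H3K27ac and H3K27me3 CUT&Tag peak lists of 38 K562 libraries (56 lists) were used, grouped by the submitters' labels. According to the paper and the processing notes, the authors used Trim Galore (0.6.6) for trimming, Bowtie2 (2.2.9) for alignment to hg19 and Picard (2.6.0) against duplicates, with SAMtools (1.3.1) and bedtools (2.25.0) for file handling, and MACS2 and SEACR for peak calling in each library. The deposited MACS2 lists give a rounded score, the fold over background, -log10 p and -log10 q, narrow for H3K27ac and broad for H3K27me3. The lowest -log10 q was 1.22 for H3K27me3 and 5.35 for H3K27ac, so MACS2 counts of the marks do not rest on like limits. The deposited SEACR lists give summed signal and maximum signal, called by the authors at 0.01 for H3K27ac and 0.1 for H3K27me3. The study names the SEACR mode as stringent in one place and non-stringent in another, so SEACR widths and counts hold for whichever was used. Fold and signal served here to rank peaks of the same list. Reads are absent from these lists, so depth was read only as peaks per list, which for H3K27ac came to 21317 to 34897 (MACS2) and 10930 to 15614 (SEACR), and for H3K27me3 to 65638 to 77412 and 83643 to 85248. Peaks in blacklisted regions were kept. Some items are not reported here.

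Autosomal, X and Y peaks were set against GENCODE 44 genes on GRCh37, 1-based. A promoter was the merged windows of 1.5 kb either side of each annotated start, and an overlap of 1 bp counted. Where the body is under 1.5 kb the promoter holds all of it, so promoter and body counts are then not separate. Coverage is the share of a window's bases under peaks. Groups stood apart where every library of one mark was above every library of the other. Per gene, an exact two-sided permutation test was adjusted by Benjamini and Hochberg over all coding genes. The coverage and permutation code was tested on simulated data, where 100.0% of 200 changed genes among 20162 reached the smallest p. Members and lists were chosen with earlier results of these data known. Named were all members within 200 kb of the globin coding span, up to 10 members with the most H3K27ac promoter calls, up to 10 with the highest H3K27me3 body coverage, members known outside the nose, and the context lists. OR52A5 in detail, OR56A3, OR52I2 and the remaining members with any peak were named after their values were seen. Promoter sequence was read from GRCh37 in place of a promoter table of another build. The alternatives were other promoter windows and starts, coding spans, stricter peaks, a larger overlap, other globin distances, a replicate block, and leaving out each library. Software was Python 3.11.15, with scipy 1.17.1 beside numpy 2.4.6, matplotlib 3.10.9 and pandas 2.3.3.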

Additional observations from a re-analysis of the deposited data

Results flagged for a closer look

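Of 24 sets of 6 H3K27ac values tested for a library far from the rest, 4 had one, each time ab4729 replicate 1. Chance alone flags about 1 in 20 groups of independent, continuous values, a rate that does not hold for sets made mostly of 0. The share of the members' body bases under MACS2 peaks was 0.0921% there, against 0.335% to 0.469% in the other 5. The promoter coverage of OR51B5 by SEACR was 0 there, against 32.3% to 41.2%. The promoter of OR52N2 was covered to 60.2% and its body to 18.3% by SEACR there, against 0 in each of the others. Both values come from the same peak, and with 0 in all the others any single peak meets the rule. That library had the shortest MACS2 H3K27ac list, with 21317 peaks, and the part of this in the values was not tested.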

How the results depend on the processing

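Of 198 alternatives over 17 results, 163 stayed within the limits set and 35 did not. With the coding start as the only promoter, H3K27ac promoters fell to 1 member (MACS2) and 0 (SEACR). On coding spans alone, H3K27ac bodies came to 1 and 0, the mean H3K27ac share to 0.141% and 0, the H3K27me3 share to 3.46% and 5.67%, and the members with more H3K27ac than H3K27me3 to 0 (SEACR). Without the 14 members beside the globin genes, OR51B5 among them, H3K27ac bodies were 2 (MACS2) and 1 (SEACR) and H3K27ac promoters 1 (SEACR). The mean H3K27ac shares were then 0.113% and 0.291%, and the H3K27me3 share was 2.74% (SEACR). MACS2 peaks of q at or under 1e-10 left 0 members with H3K27me3 at the promoter, in the body or above H3K27ac (3.97%, 4.75% and 4.57% of all coding genes), and a share of 0. The upper 50% of SEACR signal left 1, 0 and 0 (20.9%, 24.9% and 23.5% of all coding genes), and a share of 0.329%. With promoters of 3 kb either side, SEACR gave 11 H3K27me3 promoters. A wider window can only add peaks for any gene, and the share of all coding genes with it is not given. Nor is it given for the counts by coding start and coding span, so those moves are not results about the members alone. The members beside the globin genes were 7 within 100 kb and 31 within 500 kb.

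Leaving out each library in turn gave 8 to 13 H3K27me3 promoters (MACS2, the highest without CST-9733 replicate 2) and 7 to 13 (SEACR, the highest without CST-9733 replicate 1), with 10 to 18 and 10 to 17 bodies, and the same ranges for bodies above H3K27ac. With 1 H3K27me3 library left, the rule of both libraries becomes a rule of 1. By MACS2, replicate 1 alone had promoter peaks at 32.3% and body peaks at 36.6% of all coding genes. By SEACR, replicate 2 alone had them at 29.0% and 34.2%. Members with more H3K27ac than H3K27me3 in the body were 0 to 2 by MACS2 (2 without ab177178 replicate 1 or ab4729 replicate 1) and 1 to 2 by SEACR (2 without ab4729 replicate 1). The H3K27ac counts did not move, at 3 and 2 promoters and 4 and 2 bodies (MACS2 and SEACR), and the mean H3K27ac shares were 0.317% to 0.393% (MACS2) and 0.512% to 0.649% (SEACR).

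Whether same-numbered libraries were prepared together is not given by the labels. Correlations between the deviations of such libraries were -0.0496 to 0.311 by MACS2 and -0.0321 to 0.0197 by SEACR, which does not settle it. With the replicate number as a block, 10 members in each caller had more H3K27me3 than H3K27ac in the body, and 0 (MACS2) and 1 (SEACR) the reverse, as without it. Peaks are thresholded, so a weak mark can be missed.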
